A study of Mus musculus with 9 samples.

Results

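Receptors for estrogens, progestins and corticosteroids, and genes under their control, were followed across 3 regions of the mouse forebrain. Of 9 genes listed (Esr1, Esr2, Pgr, Nr3c1, Nr3c2, Cyp19a1, Greb1, Sytl4 and Fkbp5), 8 were represented by 23 probe sets of the 45037 in the deposited table, and probe sets near the lowest readable signal were included. No probe set was annotated to Cyp19a1, which encodes aromatase, the enzyme that makes estrogens from androgens, so it was not analysed here. Punches came from a steroid-sensitive limbic nucleus, the BNST (bed nucleus of the stria terminalis), and from its striatal neighbours, the NAc (nucleus accumbens, or ventral striatum) and the dStr (dorsal striatum). They were cut from coronal slices of 300 um, and 10 ng of total RNA was amplified in 2 labelling cycles and hybridised to Affymetrix Mouse430_2 arrays. Each region had 3 arrays, described as biological replicates. The labels used here give no sex, strain, age, hormonal state or treatment other than brief isoflurane anaesthesia before decapitation. They do not say whether replicates came from separate or pooled animals, or whether 1 animal gave several regions, so p-values measure only the spread between these samples.

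Steroid hormones cross the cell membrane and bind nuclear receptors, which then act on DNA as transcription factors. Esr1 and Esr2 encode the estrogen receptors alpha and beta, Pgr the progesterone receptor, Nr3c1 the glucocorticoid receptor and Nr3c2 the mineralocorticoid receptor. The BNST is known as a site of estrogen receptor and aromatase expression and of sex differences in rodents, whereas glucocorticoid receptor is found in most brain cells. Greb1 is a classical estrogen-induced gene, Sytl4 encodes granuphilin, a Rab27-binding protein of secretory vesicles, and Fkbp5 encodes a glucocorticoid-induced cochaperone that lowers the hormone affinity of the receptor.

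The upstream sequences of the genes that the results turn on are shown for context: Sytl4 and Esr1, because a probe set of each was higher in the BNST, and Greb1, because it is the textbook estrogen target. Each is the 250 bases before an annotated start in RefSeq on GRCm38.p6, read 5′ to 3′ on the gene's strand. Capitals mark the half-site of the estrogen response element, GGTCA or its reverse complement.
Sytl4, chrX:133981813-133982062, minus strand: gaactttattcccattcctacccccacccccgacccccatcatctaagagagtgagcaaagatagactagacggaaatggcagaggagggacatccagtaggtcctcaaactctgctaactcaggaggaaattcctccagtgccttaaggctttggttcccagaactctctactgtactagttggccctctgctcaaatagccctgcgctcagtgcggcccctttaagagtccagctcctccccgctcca
Esr1, start 1, chr10:4611739-4611988, plus strand: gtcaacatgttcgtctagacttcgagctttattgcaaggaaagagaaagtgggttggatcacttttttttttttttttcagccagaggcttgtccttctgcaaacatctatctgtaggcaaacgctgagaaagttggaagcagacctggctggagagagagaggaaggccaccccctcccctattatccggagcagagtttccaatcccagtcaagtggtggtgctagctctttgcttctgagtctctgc
Greb1, start 1, chr12:16800887-16801136, minus strand: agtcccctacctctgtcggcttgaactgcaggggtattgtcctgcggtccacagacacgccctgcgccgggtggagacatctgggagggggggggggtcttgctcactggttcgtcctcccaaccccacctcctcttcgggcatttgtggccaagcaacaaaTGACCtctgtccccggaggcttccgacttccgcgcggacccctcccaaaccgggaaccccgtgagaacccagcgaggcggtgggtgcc
The Sytl4 and Esr1 windows shown held no half-site. The Greb1 window shown held 1, which began 88 bases before the start and also matched the longer form AGGTCA. At start 2, not shown, the Greb1 window held 2 half-sites and the Esr1 window held 0. Over both strands, 35.2% of 32851 promoter windows of this length held GGTCA, which is part of AGGTCA, and 14% held AGGTCA. Windows on the chromosome of Nr3c1 were left out for the members but kept in the shares over all windows. Upstream windows were thus used for 8 of the 9 genes (all but Nr3c1), in 12 entries. Of these, 6 held GGTCA, 0 held the full element GGTCANNNTGACC (found in 0.0639% of all windows), and 2 held ACANNNTGT (5.84% of all), the core of the glucocorticoid response element. None of the 12 held AGAACA, found in 16.1% of all. A match describes letters in the window, not a bound site.

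Markers of the cell types the punches could hold are given beside the tissue labels. The marker lists were chosen with earlier results of these data known, so they are no independent check of the labels. Summed intensity of 12 markers of the BNST and extended amygdala ran from 8742 to 10280 on BNST arrays, 3284 to 5580 on NAc arrays and 1293 to 1702 on dStr arrays. Of 11 tested, 6 were called higher and 1 lower in BNST than in NAc, and 10 higher and 0 lower than in dStr. The lower one was Cartpt, with means of 306 in BNST and 1200 in NAc. Summed intensity of 11 markers of striatal projection neurons ran from 3660 to 8675, from 15640 to 23210 and from 28670 to 31540 on BNST, NAc and dStr arrays. BNST replicate 1 correlated more closely with NAc replicate 3 (r = 0.965 across 14208 genes) than with the other BNST arrays (0.934 and 0.948), and NAc replicate 1 correlated at 0.938 and 0.909 with the other NAc arrays. These arrays stand apart, and calls of member genes that changed with both left out are given beside the values from all arrays. Array medians lay between 93.9 and 102, and on each array 2270 to 2698 probe sets stood at the lowest value of 15.0, here called the floor. Sums of 13 hypothalamic and preoptic markers differed little, at 1735 to 1852, 1490 to 1734 and 1598 to 1730, and 1 of 8 tested, the glutamate transporter gene Slc17a6, was higher in BNST than in each other region. Its means were 173 in BNST, 39.1 in NAc and 27.9 in dStr. Slc17a6 came through the filter on low values, described below, by its BNST arrays alone, so a difference was bound to accompany its passing.

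Of the 23 probe sets, 11 passed a filter on low values (above the 40th percentile of an array on at least 3 of 9 arrays) and were tested with limma as log2(intensity + 16) among 29293 probe sets. At a Benjamini-Hochberg adjusted p under 0.05, 1 of the 11 was called for BNST against NAc, where 1.81% of all tested probe sets were called. For BNST against dStr it was also 1 of 11, with 13.6% called among all, and for BNST against the mean of NAc and dStr again 1 of 11, with 9.53% of all. For NAc against dStr it was 0 of 11, with 1.68% of all, and 1 of the 11 had an unadjusted p under 0.05 by limma. In each BNST comparison the called probe set was Sytl4 1417336_a_at. Without the filter, 45037 probe sets were tested, and the members called were 1 of 23 for BNST against NAc (0.484% of all), 2 of 23 for BNST against dStr (8.94%), 0 for NAc against dStr (0.659%) and 2 for BNST against the mean (5.66%). The added probe set was Esr1 1460591_at. The 4 comparisons share arrays and are not independent.

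**Figure D1:**
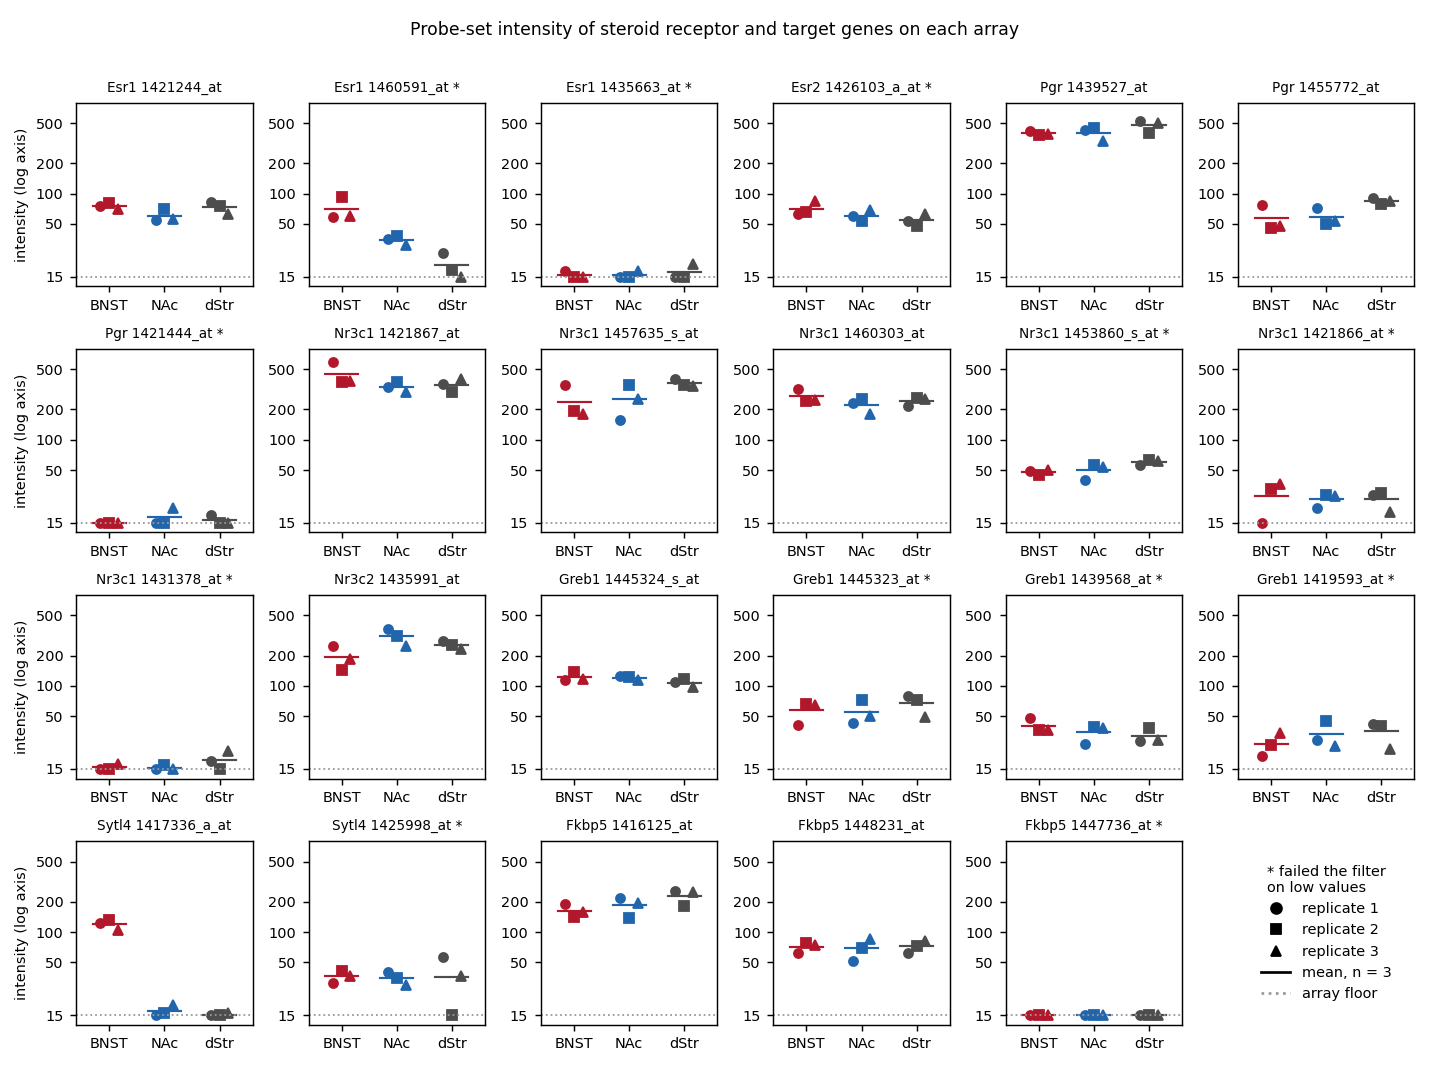
Intensity of each of the 23 probe sets on each array (log axis), with BNST, NAc and dStr from left to right, symbols for replicates, lines at the mean of 3 arrays and the floor dotted; an asterisk marks probe sets that failed the filter on low values. Sytl4 1417336_a_at lay at 105.6 to 132.1 on BNST arrays and at or near the floor on the others, and Esr1 1460591_at showed 3 levels that did not overlap.

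Among the sex-steroid receptors, 1 of 3 Esr1 probe sets was higher in the BNST, and neither Esr2 nor Pgr passed the test. The intensity of Esr1 1460591_at was 59.1, 93.2 and 60.4 on BNST arrays, against 35.4, 38.3 and 31.1 on NAc arrays and 25.5, 17.6 and 15.0 on dStr arrays. All BNST arrays lay above all NAc arrays, and all NAc arrays above all dStr arrays. This probe set failed the filter, so it was tested only in the fit without one. In that limma fit it was higher in BNST than in dStr by 1.29 ± 0.17 (SE; 95% interval 0.89 to 1.69, 2.44-fold on the log2(intensity + 16) scale), with an adjusted p of 0.00558. The size depends on the added constant because the dStr arrays lie near the floor: it was 1.82 with 1 added and 0.69 with 64, called by limma in both (adjusted p = 0.00545 and 0.00851), and the ratio of mean intensities was 3.67. Against the mean of NAc and dStr the difference was 1.02 ± 0.15, 2.03-fold, with a limma adjusted p of 0.0113. Against NAc alone the difference of 0.75 (0.35 to 1.15) did not pass in limma, with an adjusted p of 0.125, nor did that of NAc against dStr, 0.54 with an adjusted p of 0.254. Both calls held when any 1 array was left out, with limma adjusted p up to 0.0293 for BNST against dStr and up to 0.0486 for BNST against the mean.

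The other Esr1 probe sets did not show the same order. Esr1 1421244_at, which passed the filter, had intensities of 75.1, 80.8 and 70.5 on BNST arrays, 54.8, 70.2 and 55.8 on NAc arrays and 83.1, 74.6 and 62.0 on dStr arrays. The BNST arrays lay above the NAc arrays by a small margin and overlapped the dStr arrays. The limma difference was 0.27 (95% interval -0.05 to 0.58, adjusted p = 0.508) against NAc and 0.04 (-0.27 to 0.36, adjusted p = 0.881) against dStr. Esr1 1435663_at stood at the floor on 6 of 9 arrays and reached at most 20.2. The direction of Esr1 against dStr rests on 1 dim probe set, whose BNST mean of 70.9 ± 19.3 (SD, n = 3) lies below the array medians.

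Esr2 1426103_a_at failed the filter and read 63.4, 65.1 and 84.7 on BNST arrays, 59.7, 53.6 and 68.2 on NAc arrays and 53.5, 48.0 and 63.0 on dStr arrays. Every BNST array lay above every dStr array, by as little as 63.4 against 63.0, while BNST and NAc overlapped. The difference from dStr was 0.30 (-0.01 to 0.60), and it did not pass in limma (adjusted p = 0.212).

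Pgr, whose transcription estrogen induces in several tissues, had 3 probe sets. Pgr 1439527_at read 422, 380 and 386 on BNST arrays, 427, 448 and 334 on NAc arrays and 531, 402 and 500 on dStr arrays. The 3 regions overlapped, and no difference passed (BNST minus dStr -0.25, 95% interval -0.60 to 0.10, limma adjusted p = 0.323). Pgr 1455772_at read 77.3, 45.3 and 47.2 on BNST arrays, 71.1, 49.9 and 54.0 on NAc arrays and 91.3, 79.1 and 85.2 on dStr arrays. BNST and NAc arrays both lay below the dStr arrays and overlapped each other. With all arrays the differences from dStr, -0.51 for BNST and -0.45 for NAc, did not pass in limma (adjusted p = 0.101 and 0.323). Without BNST replicate 1 that of BNST was -0.70, with a limma adjusted p of 0.0149. A fit without BNST replicate 1 and NAc replicate 1 was chosen after the data were seen. In it the NAc difference from dStr was -0.57 (limma adjusted p = 0.0418) and that of BNST stayed at -0.70 (0.0033). BNST minus the mean was -0.41 (0.0316). Over all tested probe sets that fit called 1191 for NAc minus dStr, against 493 with all arrays. For BNST minus dStr it called 8450 against 3995, and for BNST minus the mean 7748 against 2793. Pgr 1421444_at was at the floor on 7 of 9 arrays.

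For the corticosteroid receptors no difference passed with all 9 arrays on the deposited scale. Nr3c2 1435991_at, the only mineralocorticoid receptor probe set, read 249.9, 144.1 and 184.7 on BNST arrays, 368.6, 312.6 and 250.0 on NAc arrays and 278.3, 251.7 and 235.0 on dStr arrays. All BNST arrays were below all NAc arrays, the closest pair being BNST replicate 1 and NAc replicate 3, and BNST and dStr overlapped. The means were 193 ± 53.3, 310 ± 59.3 and 255 ± 21.8 in BNST, NAc and dStr (SD, n = 3 each). BNST minus NAc was -0.66 ± 0.20 (SE; 95% interval -1.11 to -0.21) with a limma adjusted p of 0.161. BNST minus the mean of NAc and dStr was -0.53, with a limma adjusted p of 0.0914. Without BNST replicate 1 these were -0.85 (limma adjusted p = 0.0384) and -0.72 (0.0214), and without BNST replicate 2 they were -0.48 (0.526) and -0.35 (0.387), so the side of the threshold depends on single arrays. Without BNST replicate 1 and NAc replicate 1, a choice made after the data were seen, they were -0.72 (limma adjusted p = 0.0243) and -0.66 (0.00958). BNST minus dStr was then -0.59 (0.0208), against -0.40 (adjusted p = 0.221) with all arrays. Over all tested probe sets that fit called 4268 for BNST minus NAc, against 529 with all arrays.

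The glucocorticoid receptor gene had 6 probe sets, of which 3 passed the filter, and they did not move together. Nr3c1 1421867_at read 589, 375 and 380 on BNST arrays, 337, 374 and 297 on NAc arrays and 356, 297 and 401 on dStr arrays. BNST lay above NAc with the nearest arrays at 375 and 374, and BNST replicate 1 was the highest of the 9. BNST minus NAc was 0.37 (-0.06 to 0.80, limma adjusted p = 0.500), and BNST minus the mean was 0.34 (adjusted p = 0.253), which passed only after quantile normalisation (0.50, adjusted p = 0.0471).

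Nr3c1 1457635_s_at went the other way, with 347, 192 and 180 on BNST arrays, 156, 350 and 254 on NAc arrays and 400, 347 and 339 on dStr arrays. BNST replicate 1 overlapped the dStr arrays, and the other 2 BNST arrays lay well below them. BNST minus dStr was -0.62 (-1.27 to 0.03, limma adjusted p = 0.195), and -0.90 without BNST replicate 1 (limma adjusted p = 0.0446). BNST minus NAc was -0.07 (limma adjusted p = 0.969). Without BNST replicate 1 and NAc replicate 1, a choice made after the data were seen, it was -0.64 (limma adjusted p = 0.04). BNST minus dStr then kept its -0.90 (0.00255), and BNST minus the mean was -0.77 (0.0045). Calls over all tested probe sets also rose in that fit, as given for Pgr and Nr3c2. Nr3c1 1460303_at lay between 181 and 317 with all regions overlapping, and its 3 BNST comparisons ran from 0.14 to 0.26, none of them called. The 3 dimmer probe sets failed the filter. Among them 1453860_s_at was lower on each BNST array (44.8 to 49.7) than on each dStr array (55.5 to 63.0), with a limma adjusted p of 0.213, and the other 2 overlapped.

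**Figure D2:**
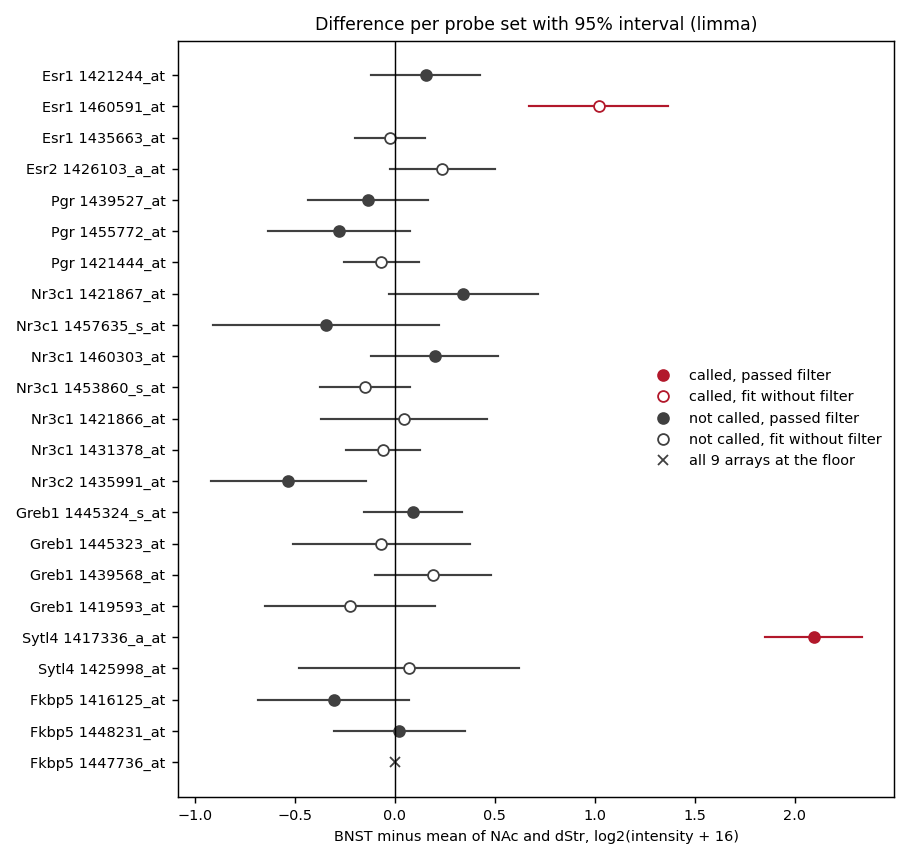
Difference of BNST minus the mean of NAc and dStr for each probe set on the log2(intensity + 16) scale, with its 95% interval; filled circles passed the filter, open ones were tested without it, red ones were called, and a cross stands at 0 for the probe set with all 9 arrays at the floor. Sytl4 1417336_a_at (2.10) and Esr1 1460591_at (1.02) were called, and the Nr3c1 probe sets fall on both sides of 0.

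Among the steroid-responsive genes, Sytl4 differed by more than any other member and the estrogen target Greb1 was not called. Sytl4 1417336_a_at read 123.6, 132.1 and 105.6 on BNST arrays, against 15.0, 15.8 and 18.9 on NAc arrays and 15.0, 15.0 and 15.5 on dStr arrays. All 3 BNST arrays were clearly above the floor, and 1 NAc and 2 dStr arrays stood on it. The means were 120.4 ± 13.5, 16.6 ± 2.04 and 15.2 ± 0.322 in BNST, NAc and dStr (SD, n = 3 each). Sytl4 was higher in BNST than in NAc by 2.06 ± 0.13 (SE; 4.18-fold on the log2(intensity + 16) scale, limma adjusted p = 8.25e-05) and higher than in dStr by 2.13 ± 0.13 (4.36-fold, limma adjusted p = 4.22e-05). Since NAc and dStr arrays lay at or near the floor, these fitted folds depend on the added 16 and are no bound. The ratios of mean intensities were at least 7.28-fold against NAc and at least 7.95-fold against dStr, because signal below the floor is not resolved. NAc minus dStr was 0.06 (95% interval -0.22 to 0.34, limma adjusted p = 0.882). The probe set passed the filter through its BNST arrays alone, so a difference was bound to accompany its passing; in the fit without a filter the limma adjusted p was 3e-04 against NAc and 0.00024 against dStr. With any 1 array left out, BNST minus NAc ran from 2.00 to 2.15 and BNST minus dStr from 2.06 to 2.21, and the calls held.

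The second Sytl4 probe set, 1425998_at, read 31.3, 41.5 and 36.8 on BNST arrays, 40.1, 34.9 and 30.1 on NAc arrays and 55.9, 15.0 and 36.5 on dStr arrays. The regions overlapped fully. BNST minus dStr was 0.10 with a 95% interval of -0.54 to 0.74 (limma adjusted p = 0.869, fit without a filter), which does not reach the 2.13 of the first probe set. Of 8 markers of ependyma and choroid plexus tested, 6 were higher in BNST than in each other region, as Sytl4 was. Ttr, with means of 412.5 in BNST, 290.5 in NAc and 293.8 in dStr, was not called. Neither was Folr1, with means of 130, 119 and 116.3 in the same order. The summed intensity of the 10 markers listed ran from 1874 to 3821 on BNST arrays, 663 to 706 on NAc arrays and 623 to 713 on dStr arrays. Of these, Otx2 was at the floor on all NAc arrays, and Enkur, Otx2 and Tmem212 on all dStr arrays. Otx2, Enkur, Tmem212, Ccdc153 and Dynlrb2 averaged at most 41.1 in NAc and dStr, where the lowest 40th percentile of an array was 71.5. They passed the filter through their BNST arrays alone, so a difference was bound to accompany their passing. Sytl4 was lowest on BNST replicate 3, on which the summed intensity of these 10 markers was highest. It was highest on BNST replicate 2, on which that sum was lowest. Of 10 astrocyte markers, 2 were higher in BNST than in NAc and 4 than in dStr, with sums of 16860 to 18680, 13300 to 14730 and 12170 to 12830 on BNST, NAc and dStr arrays. Gfap, called in both comparisons, likewise passed the filter through its BNST arrays alone. The part of these cell types in the Sytl4 result was not tested. In such tissue punches, more cells of a type and more RNA per cell cannot be told apart.

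The genes whose levels followed Sytl4 1417336_a_at most closely over the 9 arrays, of 14207 others, were Fhad1 (Pearson r = 0.995), Sp8 (0.991), Otx2 (0.988), Aifm3 (0.980) and Asb4 (0.980). All 5 were high on the BNST arrays and low on the rest, so the correlation describes that step and not variation within a region. Otx2, a homeobox gene of choroid plexus and parts of the forebrain, averaged 277 in BNST and 15.0 in both NAc and dStr. Sp8, a zinc finger transcription factor of interneuron lineages, averaged 114 in BNST, 17.8 in NAc and 15.0 in dStr. Aifm3 differed less, at 837, 284 and 263. For Esr1 1421244_at, whose dStr arrays overlapped those of both other regions, the closest with an established name were Megf6 (r = 0.944), Pip5k1b (0.891), Chad (0.878) and Mgat5 (0.870). These were picked as the highest among 14207 genes over 9 arrays, for a probe set that was not called, and were not tested.

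**Figure D3:**
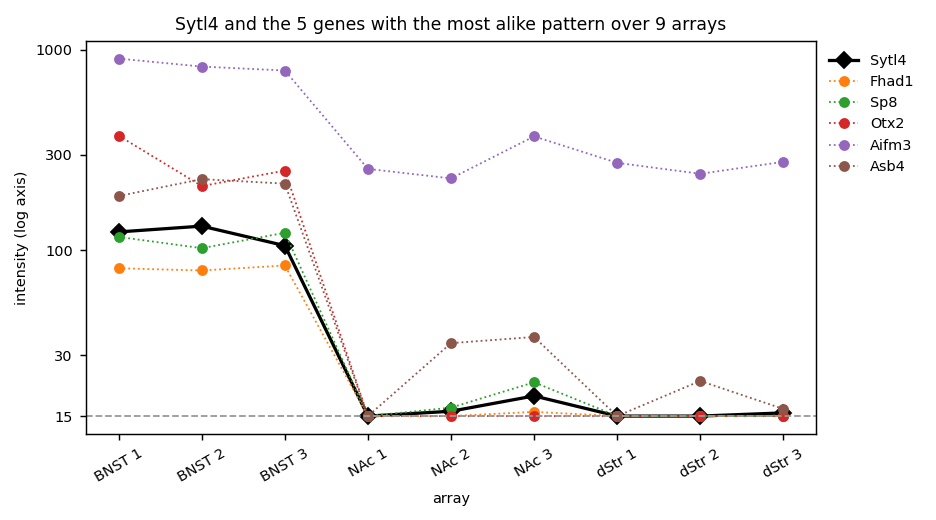
Intensity (log axis) of Sytl4 1417336_a_at, in black, and of the 5 genes with the highest correlation to it on each of the 9 arrays, with the floor dashed; lines join arrays of 1 gene only to guide the eye. All 6 are high on the 3 BNST arrays, and Aifm3 alone stays far above the floor elsewhere.

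Greb1 1445324_s_at, the brightest of 4 Greb1 probe sets and the one that passed the filter, read 113.5, 137.2 and 116.9 on BNST arrays, 124.4, 121.3 and 114.8 on NAc arrays and 108.6, 116.5 and 97.3 on dStr arrays. The regions overlapped in every pair. BNST minus the mean of NAc and dStr was 0.09 with a 95% interval of -0.15 to 0.34 (limma adjusted p = 0.670), so a difference of 1 on this scale lies outside the interval. The other 3 Greb1 probe sets read 20.3 to 78.9, overlapped between all regions and were not called.

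Fkbp5 1416125_at read 188, 140 and 157 on BNST arrays, 216, 139 and 196 on NAc arrays and 256, 181 and 250 on dStr arrays. The dStr arrays were the highest on average, but dStr replicate 2 lay below BNST replicate 1. BNST minus dStr was -0.46 (95% interval -0.89 to -0.02), and it did not pass in limma (adjusted p = 0.158). Fkbp5 1448231_at read 51.5 to 85.0 and gave 0.02 (-0.30 to 0.35) for BNST minus the mean. Fkbp5 1447736_at was at the floor on all 9 arrays.

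Over all 23 probe sets, arrays of BNST lay wholly above those of NAc for 4 and wholly below for 1, where the shares over all probe sets were 5.52% and 7.72%. Against dStr they lay above for 3 and below for 2 (12.5% and 18.4% over all probe sets). NAc arrays lay above dStr arrays for 1 and below for 1 (7.53% and 9.01%). The median difference of the 11 that passed the filter was 0.02 for BNST minus NAc, -0.01 for BNST minus dStr and -0.13 for NAc minus dStr, beside -0.06, -0.06 and -0.02 over all tested probe sets.

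**Figure D4:**
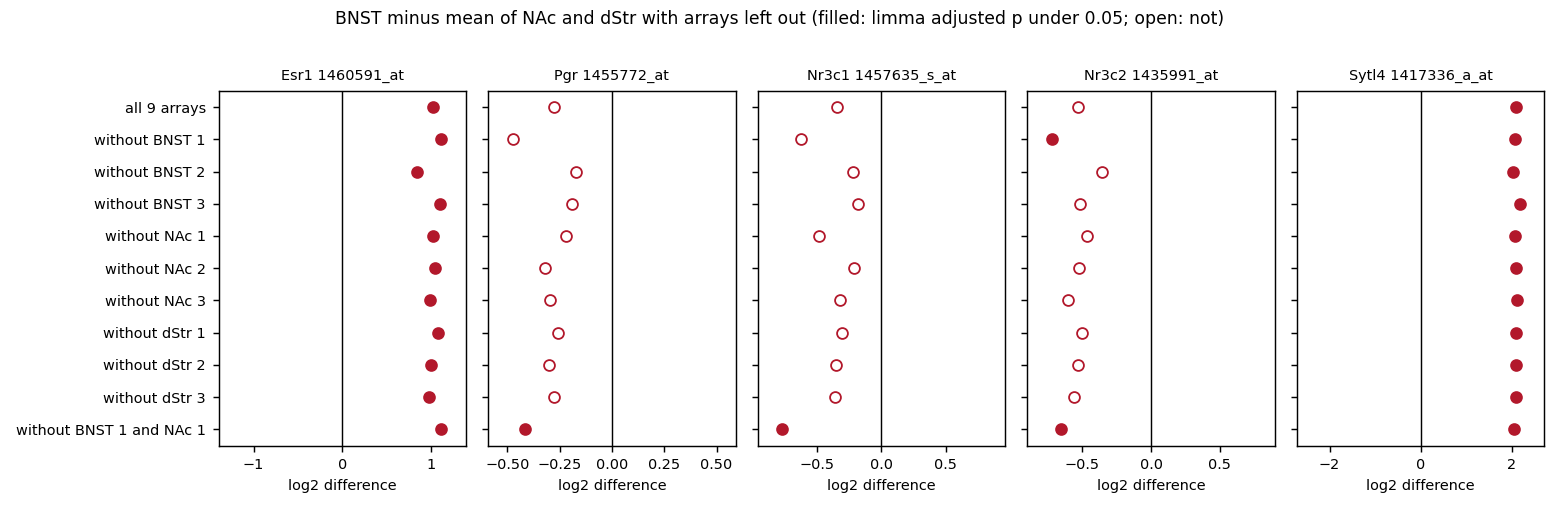
Difference of BNST minus the mean of NAc and dStr (log2(intensity + 16) scale) for 5 probe sets with all arrays, with each array left out, and without BNST replicate 1 and NAc replicate 1; filled points had a limma adjusted p under 0.05. Sytl4 and Esr1 1460591_at stay called throughout, and Nr3c2, Nr3c1 1457635_s_at and Pgr 1455772_at are called only in some fits without BNST replicate 1.

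The wider steroid pathway was described by 6 lists, with 1 probe set per gene (the one with the highest mean among those that passed the filter) and 14208 genes tested. Among all of these, 0.760% were called higher and 1.48% lower in BNST than in NAc, 4.94% and 9.33% in BNST than in dStr, 0.950% and 1.10% in NAc than in dStr, and 3.34% and 6.91% in BNST than in the mean of both. No gene of any of the 6 lists was called for NAc against dStr by limma, where 10 genes of the lists had an unadjusted p under 0.05. They were 2 of 14 tested receptors, 2 of 18 genes of synthesis and metabolism, 0 of 11 chaperones and 0 of 16 coregulators. The rest were 2 of 22 glucocorticoid-induced and 4 of 15 sex-steroid-sensitive genes. The share over all genes was not computed, so the count is not read as high or low.

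Of 14 nuclear and membrane steroid receptors tested of 17 listed, 1 was higher and 1 lower in BNST than in dStr, and 0 passed against NAc. The higher was Pgrmc1, a heme-binding progesterone receptor membrane component, with means of 3558 ± 154 in BNST, 2822 ± 260 in NAc and 2151 ± 273 in dStr (SD, n = 3 each). Its difference from dStr was 0.73 ± 0.14 (SE; 1.66-fold, limma adjusted p = 0.00587). The lower was Paqr9, a membrane progestin receptor, at 119 ± 21.9 in BNST and 243 ± 21.5 in dStr, a difference of -0.95 (limma adjusted p = 0.0105). Without dStr replicate 3 its limma adjusted p was 0.0511, and a second Paqr9 probe set gave 0.28 and was not called. The list median for BNST minus dStr was -0.11, beside -0.06 over all genes.

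Steroid synthesis and metabolism had 18 genes tested of 33, of which 0 were higher and 3 lower in BNST than in dStr. Cyp46a1, the neuronal cholesterol 24-hydroxylase, averaged 779 ± 477 in BNST and 2370 ± 184 in dStr (SD, n = 3 each), a difference of -1.75 (3.36-fold lower, limma adjusted p = 0.0216). Stard3, a late-endosomal cholesterol carrier, fell by 0.70 (limma adjusted p = 0.0142), and Hsd17b7, of cholesterol synthesis and estradiol formation, fell by 0.65 (limma adjusted p = 0.0362). For Hsd17b7, 1 of 3 further probe sets was also called lower and 1 pointed slightly the other way. Each of these 3 calls ended when single BNST or dStr arrays were left out, with limma adjusted p up to 0.0868, 0.0681 and 0.154 in the order named. Markers of other cells were also lower in BNST than in dStr: 10 of 11 tested for striatal neurons, 6 of 8 for microglia (summed intensity of 9 from 2861 to 3632 on BNST arrays and 4899 to 5018 on dStr arrays) and 1 of 8, Rgs5, for endothelium and pericytes (2220 to 2378 and 3028 to 3193). None of the 9 oligodendrocyte markers was called by limma, and 0 had an unadjusted p under 0.05. The part of these cell types in the differences was not tested. The list median was -0.05, beside -0.06 over all genes.

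Among 11 receptor chaperones and immunophilins tested of 14, Fkbp4, the cochaperone that counteracts Fkbp5, was the only one called. It averaged 182 ± 8.47 in BNST, 120 ± 22.7 in NAc and 127 ± 3.83 in dStr (SD, n = 3 each). Against the mean of NAc and dStr it was higher by 0.51 (1.43-fold, limma adjusted p = 0.0261), and the call ended in 6 of 9 fits with 1 array left out (adjusted p up to 0.0994). Its other 2 probe sets gave -0.12 and 0.13 and were not called.

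Of 16 steroid receptor coregulators tested of 18, 0 were higher and 2 lower in BNST than in dStr: Crebbp, the CREB-binding acetyltransferase, by -0.92 (limma adjusted p = 0.0306), and Ncoa1, the steroid receptor coactivator SRC-1, by -0.88 (adjusted p = 0.0383). The other 2 Crebbp probe sets that passed the filter gave -0.50 and -0.49 and were not called. A second Ncoa1 probe set was called lower as well, at -0.96. Both calls ended without some single arrays (limma adjusted p up to 0.132 for Crebbp and 0.146 for Ncoa1) and without the filter (0.0512 and 0.0612). The list median was -0.25, beside -0.06 over all genes.

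Of 22 glucocorticoid-induced genes tested of 25, 1 was higher and 0 lower in BNST than in NAc, and 1 was higher and 1 lower than in dStr. Rasd1, the dexamethasone-induced Ras protein, averaged 124 ± 30.4 in BNST, 46.6 ± 8.62 in NAc and 32.8 ± 3.15 in dStr (SD, n = 3 each). It was higher by 1.14 against NAc (2.21-fold, limma adjusted p = 0.0103) and by 1.49 against dStr (2.81-fold, adjusted p = 0.000471). Rasd1 passed the filter through its 3 BNST arrays alone, so a difference was bound to accompany its passing; without the filter the limma adjusted p was 0.0239 and 0.00163. The call against NAc ended without BNST replicate 3 or NAc replicate 2 (limma adjusted p up to 0.0619) and with the 6 arrays of the pair alone (0.0678), and that against dStr held with any 1 array left out. Klf9, a Krüppel-like factor, was lower in BNST than in dStr by -0.94 (limma adjusted p = 0.0135), with 4 of 5 further probe sets also called lower, and without dStr replicate 2 its limma adjusted p was 0.0548. Fkbp5, also on this list, was not called, and the list median of 0.02 stood beside -0.06 over all genes.

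The list of sex-steroid-sensitive genes of the limbic forebrain, which holds Sytl4, had 15 genes tested of 20, with 3 higher and 1 lower in BNST than in NAc, and 5 higher and 2 lower than in dStr. The list was drawn up with results of these arrays known, so its count is not independent evidence. Cd24a, a glycosylated cell surface protein, averaged 549 ± 158 in BNST, 122 ± 21.7 in NAc and 81.7 ± 4.28 in dStr (SD, n = 3 each). It was higher by 2.01 against NAc (4.02-fold, limma adjusted p = 0.00111) and by 2.50 against dStr (5.64-fold, adjusted p = 8.8e-05), and a second Cd24a probe set was called in both. Ecel1, an endopeptidase-like protein of neurons, was higher by 1.27 against NAc (limma adjusted p = 0.00492) and by 0.93 against dStr (adjusted p = 0.00506). It is also among the markers of the BNST and extended amygdala counted above. Dgkk, a diacylglycerol kinase, was higher by 1.37 against dStr (limma adjusted p = 0.00116), and Rps6ka6, a ribosomal S6 kinase named after its values were seen, by 0.64 (adjusted p = 0.0135).

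Of 4 neuropeptide precursors tested on the same list, Tac1 was lower in BNST than in each other region and Penk than in dStr, and Gal and Avp were not called. Gal, the galanin precursor, averaged 170 ± 4.54 in BNST, 132 ± 31.9 in NAc and 122.9 ± 38.4 in dStr (SD, n = 3 each), and its differences of 0.36 and 0.47 did not pass in limma (adjusted p = 0.609 and 0.207). Avp, the vasopressin precursor, gave 0.08 and 0.00. Tac1, the precursor of substance P, averaged 1214 ± 461 in BNST, 4127 ± 764 in NAc and 4194 ± 412 in dStr (SD, n = 3 each), with differences of -1.82 (limma adjusted p = 0.0081) and -1.85 (adjusted p = 0.00145). With the arrays of the pair alone the limma adjusted p against NAc was 0.0565, and a second Tac1 probe set gave -0.18 and -0.42 and was not called. Penk, the enkephalin precursor, was lower than in dStr by -1.21 (limma adjusted p = 0.00928), and its -1.08 against NAc did not pass (adjusted p = 0.0588). Both are also markers of striatal projection neurons, whose summed intensity was lowest on BNST arrays. With any 1 array left out, the calls of Cd24a, Ecel1, Dgkk, Tac1 and Penk held, and that of Rps6ka6 ended in 4 of 9 fits. The list median for BNST minus dStr was 0.17, beside -0.06 over all genes.

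**Figure D5:**
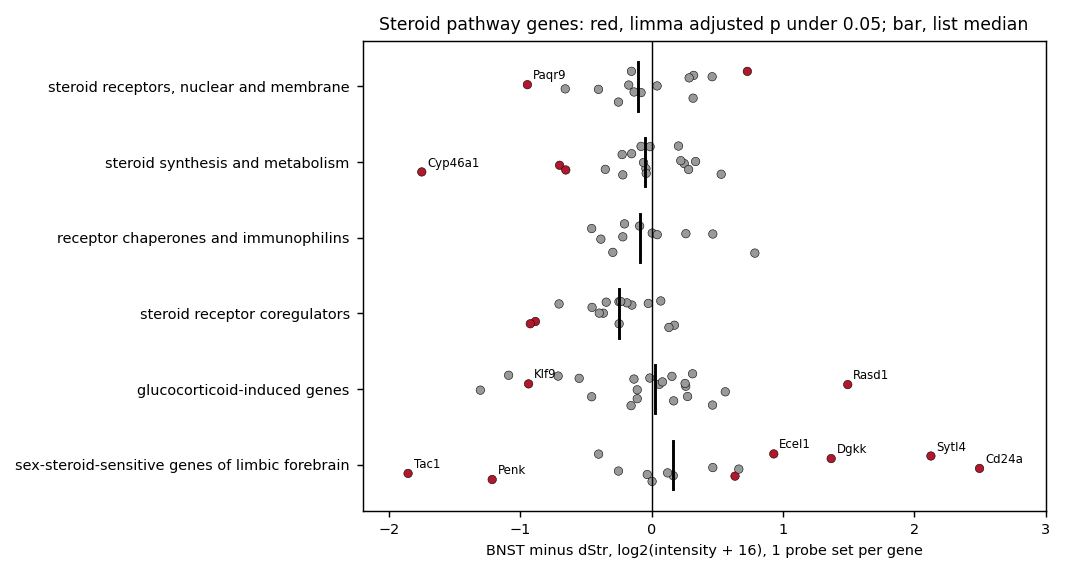
Difference of BNST minus dStr on the log2(intensity + 16) scale for each tested gene of the 6 steroid lists, 1 probe set per gene, with the list median as a bar and genes with a limma adjusted p under 0.05 in red. The called genes of the bottom list run from Tac1 (-1.85) to Cd24a (2.50), and the medians of all 6 lists lie between -0.25 and 0.17.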

How the data were processed

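Punches of BNST, NAc and dStr were profiled on 9 Affymetrix Mouse430_2 arrays, 3 per region from the labels. The deposited values are linear intensity summaries of 45037 probe sets; how they were summarised and scaled is not given in the sources used here. The number of arrays limits the precision. The annotation paired 34945 probe sets with 1 symbol, 932 with several and 9160 with none; 34741 symbols matched by Entrez identifier, and 0 changed. Probe sets were kept if at least 3 arrays exceeded their 40th percentile (29293). log2(intensity + 16) was fitted with limma 3.58.1 in R 4.3.3, with 1 mean per region and 6 residual degrees of freedom, 2-sided, Benjamini-Hochberg over all kept probe sets, threshold 0.05. Member probe sets that were not kept were tested in a fit without the filter. Gene lists used 1 probe set per gene (14208).

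The members and lists were chosen with earlier results of these data known. Named were all member probe sets, up to 4 called genes per list, comparison and direction with the smallest adjusted p, and the 5 genes most correlated with Sytl4 and with Esr1, skipping genes without an established name. Alternatives were quantile normalisation, median centring, no filter, a 60th percentile filter, pseudocounts of 1 and 64, 1 probe set per gene, a replicate block, a trended robust prior, each array left out and the arrays of the pair alone; leaving out BNST 1 and NAc 1 together, and no filter combined with the others, were chosen after seeing the data. The fit was tested on simulated data. Promoters came from RefSeq (GRCm38.p6).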

Additional observations from a re-analysis of the deposited data

How the results depend on the processing

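With 3 arrays per region, differences under the width of the intervals are not resolved, and below the floor there is no signal to compare. Sytl4 1417336_a_at was called in its 3 BNST comparisons under every alternative that kept it, at 1.19 to 2.90, and the filter at the 60th percentile removed it. Esr1 1460591_at was called in BNST minus dStr and BNST minus the mean in every fit without a filter. None of the 5 called member results (Sytl4 in 3 comparisons, Esr1 in 2) changed sign. Of 92 member results, 10 changed their call in at least 1 alternative, and 37 that were not called changed sign. The 37 include the comparisons of Fkbp5 1447736_at, whose difference was 0 with every array at the floor, so no direction was reversed there. Member probe sets called, 1 in each BNST comparison and 0 for NAc minus dStr, became 2 without a filter for BNST minus dStr and for BNST minus the mean (Esr1), 0 with the 60th percentile filter in the 3 BNST comparisons, and 2 after quantile normalisation for BNST minus the mean (Nr3c1 1421867_at). All probe sets called were 529 for BNST minus NAc, 3995 for BNST minus dStr, 493 for NAc minus dStr and 2793 for BNST minus the mean. In that order, 1 probe set per gene, with fewer features tested, gave 318, 2027, 291 and 1457. No filter gave 218 for BNST minus NAc and 297 for NAc minus dStr, and the pair alone, with fewer arrays, gave 85 for BNST minus NAc. Leaving out BNST 1 and NAc 1 together, chosen after the data were seen, gave 4268, 8450, 1191 and 7748, and 3, 4, 1 and 4 member probe sets, drawn from Sytl4, Nr3c1 1457635_s_at, Nr3c2 and Pgr 1455772_at. With 1 array left out, the counts ran from 107 to 1193 for BNST minus NAc (lowest without BNST 3, highest without BNST 1), 2070 to 5480 for BNST minus dStr (likewise), 126 to 667 for NAc minus dStr (lowest without dStr 3, highest without NAc 1) and 1131 to 4087 for BNST minus the mean (as for BNST minus NAc). The members called ran from 1 to 2, 1 to 3, 0 to 0 and 1 to 2. The labels do not say whether replicate numbers pair the samples. Deviations of same-numbered arrays correlated at -0.511 to 0.26, over 0.1 in 2 of 9 pairs, which cannot tell whether they came from 1 animal. The replicate block gave 278, 2881, 232 and 1938 calls, and the same number of member calls as without it. It ended 5 calls of list genes named above: Cyp46a1 (limma adjusted p = 0.0562), Hsd17b7 (0.0762), Crebbp (0.0713) and Ncoa1 (0.0823) in BNST minus dStr, and Fkbp4 (0.068) in BNST minus the mean. Quantile normalisation shifted the median of BNST minus dStr by 0.102, and the share of calls that were higher was 46.9% with it and 31.7% without it (43.2% and 29.2% for BNST minus the mean). Where a count moved for no reason given here, the cause was not tested.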
